A study of Homo sapiens with 15 samples.

Results

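Plastins and other actin-bundling proteins were followed through 15 poly(A) RNA-seq libraries of MCF-10A, a non-tumorigenic human mammary epithelial cell line. The set holds 8 of the 60721 genes in the count table: the plastins LCP1, PLS1 and PLS3, the bundlers FSCN1, ACTN1, ACTN4 and VIL1, and EZR, which ties actin filaments to the plasma membrane. LCP1 was chosen on its measured level, which was high in the empty-vector cells, and the other 7 were listed beside it as actin bundlers or partners. The levels of LCP1 are therefore given as a description, with no test.

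The libraries come from 5 lines with 3 biological replicates each. They are the unmodified parental cells (Parental), cells carrying an empty vector (EV), and 3 lines in which NF1 was targeted with guide RNA 1 (NF1-g1), guide RNA 2 (NF1-g2) or both guides (NF1-g1/g2). Neurofibromin, the product of NF1, is a negative regulator of RAS that speeds its hydrolysis of GTP. All lines were grown in the same serum-containing MEC medium with EGF, hydrocortisone, cholera toxin and insulin, and none was treated. The labels do not say whether a line is 1 clone or a pool, or whether replicates were separate cultures, so p-values measure the spread between these libraries, which may in part be technical.

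Actin filaments become stiffer when they are cross-linked into bundles. Plastins, also called fimbrins, hold filaments in tight parallel arrays. LCP1, or L-plastin, belongs to white blood cells and is also found in many tumour cell lines of epithelial origin. PLS3, or T-plastin, is the plastin of most solid tissues, and PLS1, or I-plastin, is known from the microvilli of intestine and kidney. Fascin packs the filaments of filopodia, alpha-actinins cross-link looser bundles in stress fibres and at adhesions, and villin is a core protein of the intestinal brush border.

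Library totals ran from 46129559 to 78976917 counts, with a median of 55942785, and a count of 3, taken as the smallest detectable level, corresponds to 0.038 to 0.065 CPM, the count per 1000000 counts of the library. Such floors cover counting error only. NF1 itself was at 115.3 to 158.7 CPM in the 6 Parental and EV libraries and at 26.04 to 51.3 CPM in the 9 edited libraries, without overlap. The second replicate of NF1-g2 stood apart from the other NF1-g2 libraries. Its CDH1 level was 91.38 CPM against 0.03613 and 0.04336 CPM, and its KRT14 level was 1147 CPM against 18.88 and 17.36 CPM. CDH1 encodes the epithelial adhesion protein E-cadherin and KRT14 a basal keratin. Parental replicate 2 was also low for its line, with CDH1 at 1.786 CPM against 42.92 and 37.78 CPM. Values that moved with that NF1-g2 library are given with and without it where they lead a result.

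LCP1 (ENSG00000136167) lies on the minus strand of chromosome 13 and spans chr13:46125920-46211871 in GENCODE 29 (GRCh38). The promoter windows of the plastins are shown because the levels of the 3 genes part in these lines. Each is the 250 bases before a RefSeq start (GRCh38.p14), printed 5′ to 3′ on the gene's strand. For LCP1 the window is chr13:46182178-46182427 on the minus strand, which falls inside the longer GENCODE span. For PLS1 it is chr3:142596143-142596392 and for PLS3 chrX:115560924-115561173, both on the plus strand and both the first of more than 1 listed start. Capitals mark the ETS core GGAAGT and the GC box GGGCGG on either strand.
LCP1: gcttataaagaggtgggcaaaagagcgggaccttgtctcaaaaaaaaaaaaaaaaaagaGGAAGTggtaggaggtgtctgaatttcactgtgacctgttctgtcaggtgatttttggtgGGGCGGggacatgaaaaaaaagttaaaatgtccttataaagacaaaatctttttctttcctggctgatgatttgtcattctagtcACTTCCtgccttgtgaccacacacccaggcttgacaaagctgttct
PLS1: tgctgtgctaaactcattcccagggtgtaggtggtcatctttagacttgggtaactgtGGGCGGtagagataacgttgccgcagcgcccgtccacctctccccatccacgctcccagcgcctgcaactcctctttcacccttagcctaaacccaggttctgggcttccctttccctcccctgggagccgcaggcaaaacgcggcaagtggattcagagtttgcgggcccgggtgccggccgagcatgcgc
PLS3: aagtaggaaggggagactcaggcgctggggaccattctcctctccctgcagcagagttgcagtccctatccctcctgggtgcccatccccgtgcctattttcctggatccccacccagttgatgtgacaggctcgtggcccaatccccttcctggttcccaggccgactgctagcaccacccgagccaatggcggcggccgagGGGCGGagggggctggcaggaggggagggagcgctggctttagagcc

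The LCP1 window had a GC content of 41.2%, against 60.8% for PLS1 and 65.2% for PLS3. It held 2 ETS cores, of which 1 was the longer GAGGAAGT, a form bound by the leucocyte factor PU.1, and the printed PLS1 and PLS3 windows held none. Windows of later starts did: 1 ETS core stood before the third listed start of PLS1 and 1 before the second of PLS3, so the core is not particular to LCP1. In the LCP1 window the 2 motifs overlap, since the longer contains the shorter. Of 35116 windows of the same length, 19.5% held GGAAGT and 2.17% held GAGGAAGT. Each of the 3 plastin windows held 1 GC box, a motif present in 42.6% of all windows. The AP-1 site TGANTCA was in 6.57% of all windows and in none of these 3. These motifs were picked because LCP1 is known as a leucocyte gene, and a match is a run of letters and not a measured binding site. SPI1, which encodes PU.1, was at most at 0.0506 CPM in any library.

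LCP1 was a prominent transcript in the EV cells, at 69.64, 73.47 and 122.7 CPM in replicates 1 to 3. In Parental cells it was at 0.4735, 0.3603 and 1.494 CPM, and in NF1-g1 cells at 0.4021, 0.3039 and 1.187 CPM. Both of these lines were above the floor in every library, with no fewer than 21 counts, and every one of their values was far below every EV value. NF1-g2 cells had 0.5059, 17.62 and 0.2891 CPM. NF1-g1/g2 cells had 6.243, 5.58 and 5.112 CPM. LCP1 was thus high in EV, intermediate in the 3 libraries of NF1-g1/g2 and in 1 library of NF1-g2, and low in the remaining 8 libraries, so the gene was not confined to the EV cells.

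The EV mean was 88.6 ± 29.6 CPM (SD, n = 3), which was 26.9 times the mean of the other 12 libraries. Without NF1-g2 replicate 2 that ratio was 44.4. By line, the EV mean was 114 times the Parental mean, 140 times the NF1-g1 mean, 14.4 times the NF1-g2 mean and 15.7 times the NF1-g1/g2 mean. Without its second replicate the NF1-g2 mean was 0.397 CPM over 2 libraries, and the EV mean was 223 times that. The lowest EV library was 3.95 times the highest library of any other line, NF1-g2 replicate 2. That library in turn was 44.3 times the mean of the other NF1-g2 libraries.

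The order of the line means was EV, NF1-g2, NF1-g1/g2, Parental and NF1-g1. NF1-g2 at 6.14 ± 9.94 CPM (SD, n = 3) and NF1-g1/g2 at 5.65 ± 0.568 CPM did not differ beyond their spread, and the place of NF1-g2 rests on its second replicate, without which it comes last, at 0.397 CPM. Parental at 0.776 ± 0.624 CPM and NF1-g1 at 0.631 ± 0.484 CPM did not differ beyond theirs. The mean of NF1-g1/g2 was 7.28 times the Parental mean, and these lines' values did not overlap. In bulk RNA an intermediate level can come from fewer cells with the transcript or from less transcript per cell, and these cannot be told apart.

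**Figure D1:**
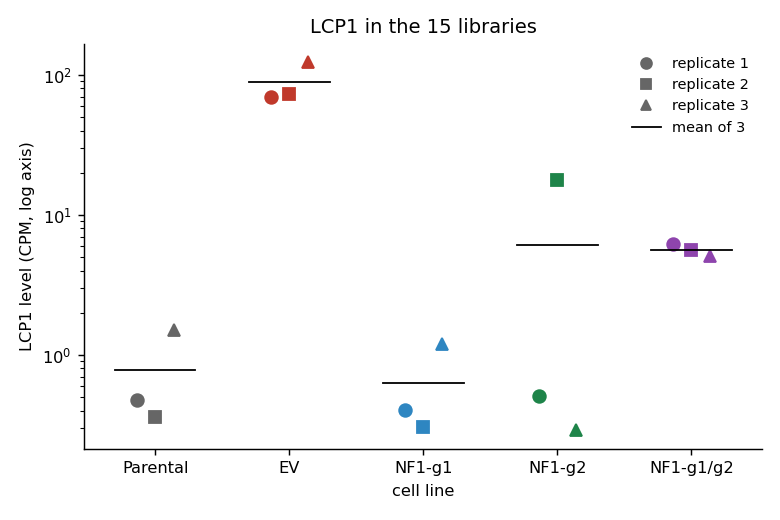
LCP1 level in CPM (log axis) in each of the 15 libraries, by cell line, with symbols for replicates 1 to 3 and a line at the mean of 3. The EV libraries lie at 69.64 CPM and above, NF1-g2 replicate 2 at 17.62 CPM, the 3 NF1-g1/g2 libraries between 5.112 and 6.243 CPM, and the other 8 libraries at 1.494 CPM or below.

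Most markers of white blood cells were at or near 0. Of 18 leucocyte genes, 13 were under 1 CPM in every library, among them TYROBP, CD3E and AIF1, for which not a single read was counted. PTPRC, which encodes the pan-leucocyte surface protein CD45, reached at most 0.0542 CPM and the tetraspanin gene CD53 at most 0.0187 CPM. The rest of the list was above 1 CPM in every library. These were LAPTM5 (2.05 to 14.2 CPM), CD14 (3.24 to 6.95 CPM), CORO1A (1.03 to 4.38 CPM), ITGB2 and RAC2. The summed level of the list was 172.3 to 180.9 CPM in EV, against 114.1 to 174.2 CPM in Parental, 154.4 to 187.1 CPM in NF1-g1, 94.48 to 179.7 CPM in NF1-g2 and 168.8 to 178.1 CPM in NF1-g1/g2. Most of that sum came from RAC2 and from ITGB2, the beta-2 integrin subunit, which these epithelial libraries held in all lines. RAC2 was at 106, 108 and 121.6 CPM in EV and between 69.74 and 103.4 CPM elsewhere, and was the 1 gene of the 7 tested on this list that edgeR called, higher in EV by 0.39 in log2 units (adjusted p 0.00751), where 7.48% of all genes tested were called. The sum of 9 fibroblast or mesenchymal markers was 1646 to 1745 CPM in EV and 927.8 to 3060 CPM elsewhere. Of the 6 tested, edgeR called 1 (16.7%, beside 7.48% of all genes), the collagen gene COL1A1, higher in EV by 1.44 (adjusted p 0.00363). COL1A1 was also the only 1 of the 6 with a log2 fold change above 0. The median of the 6 was -0.35, beside -0.02 over all genes.

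Epithelial markers did vary with LCP1 in part. CDH1 was at 44.06, 46.8 and 127.3 CPM in EV, at 23.43, 17.29 and 14.8 CPM in NF1-g1/g2, and at 0.01915 to 0.1582 CPM in NF1-g1. Within NF1-g2, replicate 2 was by far the highest library for both LCP1 and CDH1. Parental replicates 1 and 3 broke the pattern, with CDH1 at 42.92 and 37.78 CPM and LCP1 at 0.4735 and 1.494 CPM. TP63, the basal epithelial transcription factor, followed CDH1, with 41.37 to 68.04 CPM in EV, 7.829 to 10.99 CPM in NF1-g1/g2, 75.81 CPM in NF1-g2 replicate 2 and 37.38, 0.8147 and 19.94 CPM in Parental. The sum of 12 mammary epithelial markers ranged from 6550 to 9766 CPM in EV and from 2890 to 7453 in Parental. It ranged from 2537 to 3480 in NF1-g1, from 2868 to 12728 in NF1-g2 and from 4142 to 4492 in NF1-g1/g2. None of the 12 was at 0 in all libraries. In EV against the mean of the other lines all 12 had a log2 fold change above 0, with a median of 0.87 beside -0.02 over all genes. Of the 12, edgeR called 2, or 16.7% beside 7.48% of all genes. They were LAMB3, a laminin chain (0.89, adjusted p 0.00219), and KRT18, a keratin (0.30, adjusted p 0.0378). The largest changes of the list were not called by edgeR: CDH1 (3.50, SE 1.14, adjusted p 0.0846), TP63 (3.28, SE 1.1, 0.0946) and KRT17 (2.42, SE 0.717, 0.0597). The part of this epithelial variation in the LCP1 levels was not tested.

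**Figure D2:**
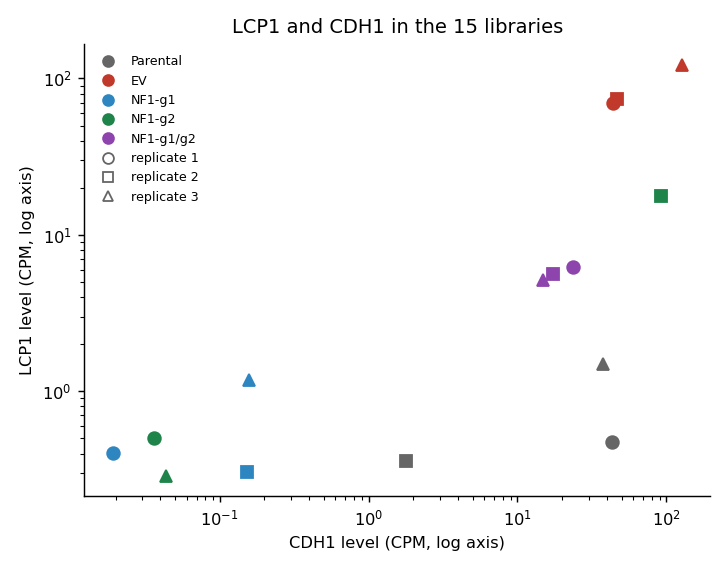
LCP1 level against CDH1 level, both in CPM on log axes, 1 point per library, coloured by line with symbols for replicates 1 to 3. NF1-g2 replicate 2 lies with the CDH1-high libraries at 91.38 CPM of CDH1, and Parental replicates 1 and 3 lie low for LCP1 at CDH1 levels of 42.92 and 37.78 CPM.

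To compare the plastins with one another, CPM were divided by the length of each gene's merged exons, giving CPM per kb. PLS3 was the main plastin in all 15 libraries. It made up 79.3 ± 2.53% (SD, n = 3) of the plastin sum in EV and 92% to 94.9% on average in the other lines. LCP1 supplied 14.2%, 15.3% and 19.1% of that sum in the EV libraries, 3.97% in NF1-g2 replicate 2, 1.37% to 1.56% in NF1-g1/g2, and 0.382% or less in the 8 other libraries. In EV, LCP1 stood above PLS1 per length, at 13.76, 14.52 and 24.25 CPM per kb against 4.656, 4.05 and 5.757. In every library of the other lines PLS1 stood above LCP1. The summed plastin level was 106 ± 17.9 CPM per kb in EV, and the other lines had means from 67.1 to 77.6 CPM per kb.

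**Figure D3:**
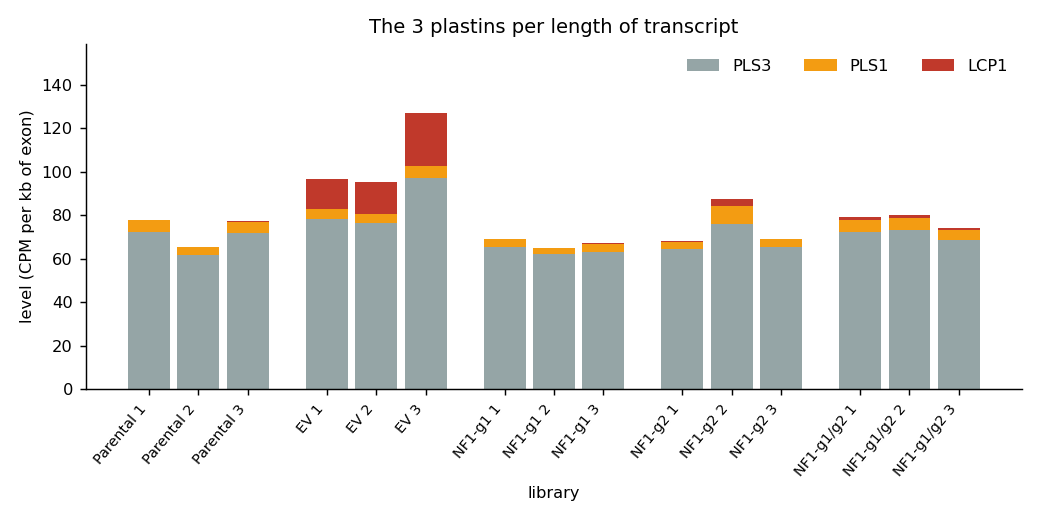
Level of the 3 plastins in CPM per kb of exon, stacked for each of the 15 libraries. LCP1 is a visible block in the EV bars, where it is 14.2% to 19.1% of the sum, and a thin one in NF1-g2 replicate 2 and the NF1-g1/g2 bars, and PLS3 fills most of every bar.

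PLS3 (ENSG00000102024, chrX:115561174-115650861) was at 321.3, 314.1 and 397.5 CPM in EV. It was at 296.2, 253.3 and 294.1 CPM in Parental, 268.8, 255.3 and 258.2 in NF1-g1, 264.3, 311.4 and 267.1 in NF1-g2, and 297, 300.7 and 280.7 in NF1-g1/g2. All 12 of the other libraries lay below all EV libraries, though the highest, NF1-g2 replicate 2, came close to the lowest EV value. In EV, PLS3 exceeded the mean of the other 4 lines by 0.33 in log2 units (SE 0.079), at an adjusted p of 0.0245 in edgeR's quasi-likelihood test. Leaving out EV replicate 3, the highest library, gave 0.21 and an adjusted p of 0.216.

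PLS1 (ENSG00000120756, chr3:142596387-142713664) was lowest in NF1-g1, at 17.83, 13.9 and 21.05 CPM, and highest in NF1-g2 replicate 2, at 43.48 CPM against 17.9 and 19.48 CPM in the other NF1-g2 libraries. Parental had 29.55, 19.19 and 27.25 CPM, EV 24.65, 21.44 and 30.48, and NF1-g1/g2 28.01, 29.06 and 23.94. EV lay within the range of the other lines, and its log2 fold change of 0.12 had an SE of 0.23 (adjusted p 0.833 in edgeR). PLS1 thus was not set apart in EV, where LCP1 was at its highest.

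FSCN1 (ENSG00000075618, chr7:5592823-5606655) was also highest in NF1-g2 replicate 2, at 583 CPM against 290.6 and 268.7 CPM in the same line. It was at 474.9, 304.8 and 351.2 CPM in Parental, 364.4, 377.2 and 425.3 in EV, 247.1, 246.1 and 265.1 in NF1-g1 and 299, 292.2 and 307.9 in NF1-g1/g2. The NF1-g1 libraries were below every Parental and EV library. The log2 fold change of EV against the mean of the other lines was 0.29 with an SE of 0.184 (adjusted p 0.407 in edgeR), and without NF1-g2 replicate 2 it was 0.41 with an adjusted p of 0.00954.

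Of the alpha-actinins, ACTN1 (ENSG00000072110, chr14:68874143-68979440) was at 781.2, 806.7 and 881.9 CPM in EV. The other 12 libraries ran from 506.5 CPM in NF1-g2 replicate 2 to 767.3 CPM in Parental replicate 3, all below EV. The log2 fold change was 0.28 with an SE of 0.0919, and the adjusted p in edgeR was 0.0883, above the threshold of 0.05. It was under that threshold without NF1-g2 replicate 1 (0.0342), without NF1-g2 replicate 2 (0.00796) and with DESeq2 (0.0484). ACTN4 (ENSG00000130402, chr19:38647649-38731583), the other non-muscle alpha-actinin, was at 699.7, 713 and 710.8 CPM in EV and ran from 608.7 to 809 CPM elsewhere, both extremes in NF1-g2. Its log2 fold change was 0.02 with an SE of 0.0726, at an adjusted p of 0.938 in edgeR.

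EZR (ENSG00000092820, chr6:158765741-158819412) was at 312.1, 311.8 and 349.7 CPM in EV. Of the other 12 libraries, 11 lay below all EV libraries, from 239.5 CPM upward, and NF1-g1/g2 replicate 3 at 312.5 CPM fell just above the lower EV values. EZR was higher in EV by 0.24 in log2 units (SE 0.0642), at an adjusted p of 0.04 in edgeR. The call was lost in 12 of the 15 fits that left out 1 library, in which the adjusted p reached 0.284. It held only without NF1-g1 replicate 3, NF1-g2 replicate 1 or NF1-g2 replicate 2. VIL1 (ENSG00000127831, chr2:218419092-218453295) had 0 to 12 counts a library, at most 0.2175 CPM, did not pass the filter on low counts and was not tested.

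**Figure D4:**
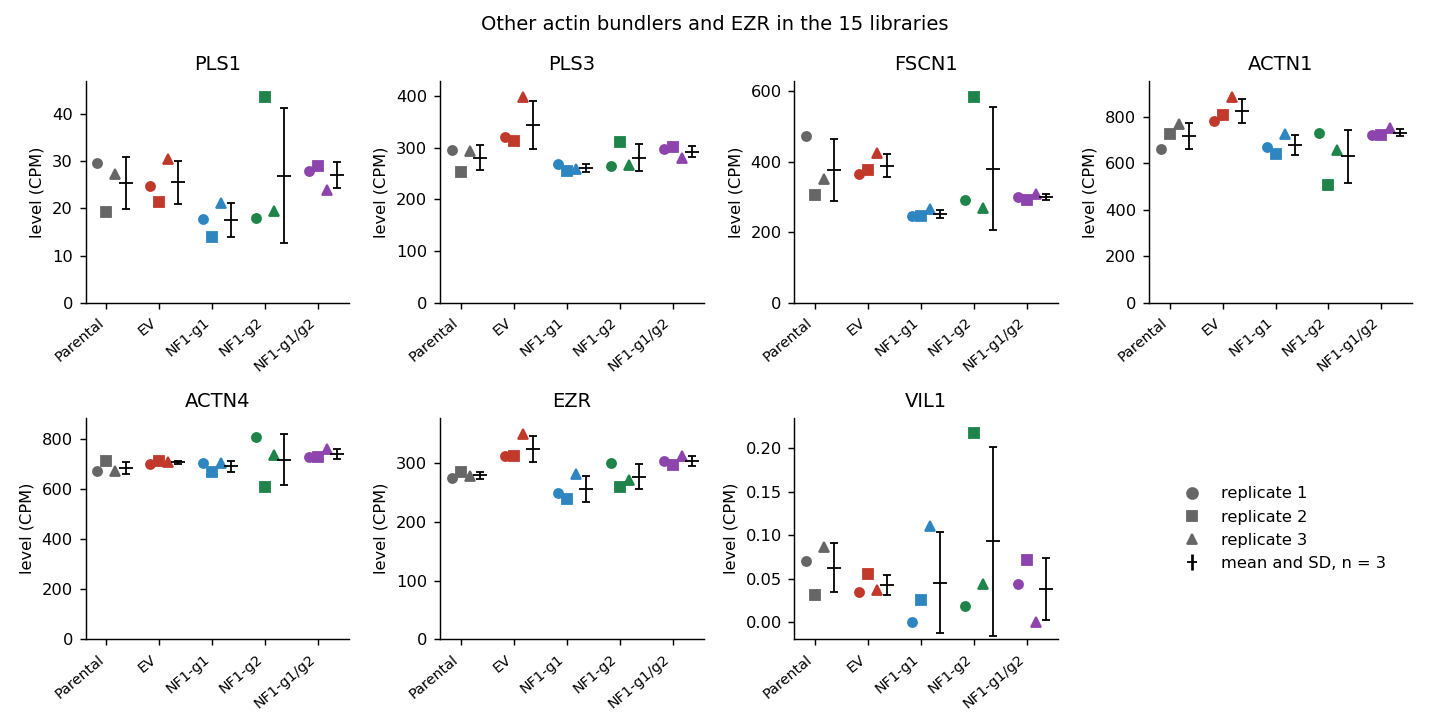
Levels of the 7 other genes in CPM, 1 panel a gene with its own axis, in each library by line, with symbols for replicates 1 to 3 and bars for the mean and SD of 3. All EV libraries lie above every other library for PLS3 and ACTN1, and EV replicate 3 is highest for EZR at 349.7 CPM. NF1-g2 replicate 2 is highest for PLS1 at 43.48 CPM and FSCN1 at 583 CPM and lowest for ACTN1 and ACTN4.

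Of the 6 members other than LCP1 that passed the filter, 2 were called different between EV and the mean of the other 4 lines, PLS3 and EZR, both higher in EV. Over all 17457 genes tested, 7.48% were called in this comparison, and 5.6% were called higher in EV. LCP1 was chosen on the same comparison, so nothing is read from the count. The median log2 fold change of the 6 was 0.26, beside -0.02 over all genes tested. Without NF1-g2 replicate 2 the members called were 4, PLS3, EZR, ACTN1 and FSCN1, where 18.7% of all genes were called. Without EV replicate 3 none was called, and 1.85% of all genes were.

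The edited lines were then compared with the parental cells, a comparison in which the EV libraries carry no weight. The EV libraries still entered the filter, the scaling and the spread estimated in the fit of all 15 libraries. None of the 6 genes was called by edgeR between the mean of the 3 edited lines and Parental, with adjusted p from 0.555 to 0.995 and none at an unadjusted p under 0.05. Of all genes tested, 0.166% were called. The log2 fold change ran from -0.28 (SE 0.19) for FSCN1 to 0.08 (SE 0.0754) for ACTN4, and was 0.00 for PLS3 (SE 0.0835), 0.01 for EZR (SE 0.0674), -0.06 for ACTN1 (SE 0.0963) and -0.10 for PLS1 (SE 0.238). DESeq2 also called none. Without NF1-g2 replicate 2, FSCN1 was lower in the edited lines, with a log2 fold change of -0.43 and an SE of 0.102 (adjusted p 0.018 in edgeR), where 13.1% of all genes were called. In that fit FSCN1 was the 1 member called.

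Over the 10 pairs of lines there were 2 member calls, both in NF1-g1 against EV. In log2 units EZR fell by 0.35 (SE 0.0826) and PLS3 fell by 0.41 (SE 0.102) in NF1-g1, at adjusted p of 0.0278 and 0.0342 in edgeR, where 5.88% of all genes were called. No member was called in Parental against EV (4.37% of all genes), NF1-g2 against EV (3.94%) or NF1-g1/g2 against EV (0.962%). Pairs of lines other than EV gave no member call in the fit of all 15 libraries either, and few calls at all. The share of all genes was 0.149% for NF1-g1 and 0.0516% for NF1-g2 against Parental, and 0.195% for NF1-g1/g2 against Parental. It was 0.0401% for NF1-g1 against NF1-g2, 0.275% for NF1-g1 against NF1-g1/g2 and 0.149% for NF1-g2 against NF1-g1/g2. Comparisons against EV share the same 3 EV libraries.

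The number of pair calls turned on which libraries entered the fit. It was 12 without NF1-g2 replicate 2, and 7 when each fit held only the 6 libraries compared. Calls over all genes rose as well, from 1.6% of the gene tests over the 10 pairs to 8.29% and 5.03%, so nothing about the members is read from the rise. The 12 included PLS3, EZR and ACTN1 in Parental against EV, all lower in Parental (edgeR adjusted p 0.0255, 0.0287 and 0.0465). They also included FSCN1 in NF1-g1 against Parental (log2 fold change -0.55, edgeR adjusted p 0.0159). The 7 included FSCN1 in NF1-g1 against EV (log2 fold change -0.63, edgeR adjusted p 0.00291) and in NF1-g1/g2 against EV (-0.41, adjusted p 0.00356). PLS1 in NF1-g1 against NF1-g1/g2 was also among the 7 (-0.61, edgeR adjusted p 0.0418).

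The wider actin cytoskeleton was read from 73 further genes in 7 lists, of which 62 passed the filter. In EV against the mean of the other lines 11 were called, 9 higher and 2 lower, or 17.7% of the list beside the 7.48% of all genes. The median log2 fold change was 0.11, beside -0.02 for all genes. ESPN, which encodes the microvillar and stereociliary bundler espin, had the largest log2 fold change of the 62, at 2.72 with an SE of 0.327 (adjusted p 0.000496 in edgeR). It was still a rare transcript, at 0.5777, 0.6822 and 0.8953 CPM in EV and 0.01807 to 0.2318 CPM elsewhere. Of the 17 crosslinkers and filament binders tested, LIMA1 was the other called, by 1.02 (adjusted p 0.00519), with 230.7, 229.6 and 323.1 CPM in EV and no more than 181.4 CPM elsewhere. LIMA1 encodes EPLIN, which links filaments to the cadherin complex.

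Among 8 filopodia and microvillus genes tested, MYO10, the filopodial tip myosin, was called higher by 0.91 (edgeR adjusted p 0.0413). EV replicates had 108.1, 108.4 and 195.7 CPM, and NF1-g2 replicate 2 at 146.1 CPM and Parental replicate 1 at 109.8 CPM reached into that range. Of the partners of EZR, 7 were tested. The scaffold gene NHERF2 was higher by 0.43 (adjusted p 0.0117), RDX, which encodes the ezrin relative radixin, was lower by a log2 fold change of -0.32 (adjusted p 0.0478), and the third relative, MSN, was not called. RDX was at 228.4, 212.7 and 214.2 CPM in EV and at 237.2 to 347.1 CPM elsewhere, so EZR and RDX moved in opposite directions.

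Of 17 Arp2/3 and formin genes, the Arp2/3 subunit genes ACTR3 (0.26), ARPC4 (0.25) and ARPC2 (0.17) were higher in log2 terms and the formin gene DIAPH3 lower (-0.56), with edgeR adjusted p from 0.0117 to 0.0492. Of 8 actin isoforms and tropomyosins, TPM1 was higher by 0.75 (adjusted p 0.0234), at 345.7, 343.8 and 346.8 CPM in EV and no more than 270.5 CPM elsewhere. ACTG2, a smooth muscle actin, was higher by 2.31 (adjusted p 0.0375), but had at most 30 counts in a library. None of the 5 villin and gelsolin family genes tested was called. FSCN2, FSCN3, ACTN2 and ACTN3, the closest relatives of the members, did not pass the filter.

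Without EV replicate 3 the 11 calls fell to 1, ESPN, or 1.59% of the listed genes tested beside 1.85% of all genes. Without NF1-g2 replicate 2 they were 22, among them all 11, or 34.9% beside 18.7%. Leaving out EV replicate 1 left 3, where 4.02% of all genes were called. Between the mean of the edited lines and Parental, edgeR called 0 of the 62, beside 0.166% of all genes. In Parental against EV 5 were called, or 8.06% beside 4.37% of all genes: NHERF2, ESPN, ARPC4 and DIAPH3, which were also called above, and ARPC5L.

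**Figure D5:**
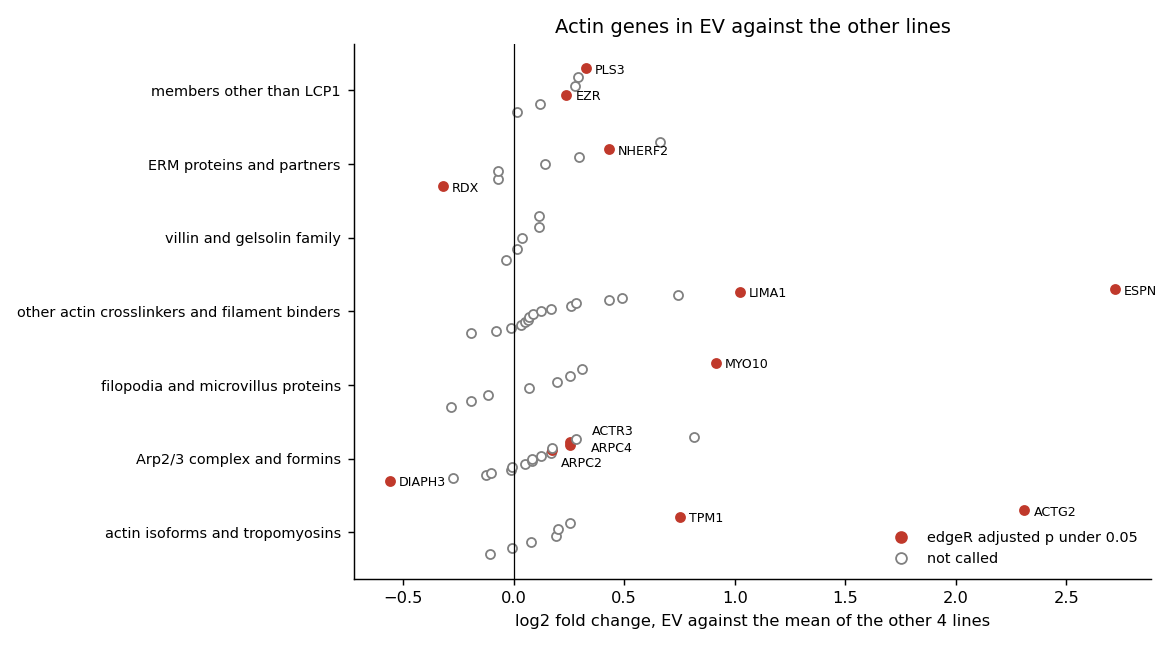
Log2 fold change of each tested gene in EV against the mean of the other 4 lines, with the 6 members other than LCP1 in the top row and the actin lists below. Filled points passed an edgeR adjusted p of 0.05, ESPN at 2.72 being the farthest right and DIAPH3 at -0.56 the farthest left.

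The genes around LCP1 were read next. Of 45 genes that start within 1 Mb of its span, 11 passed the filter. None was called higher in EV, beside 5.6% of all genes tested, so a count of 0 is near that share. The 2 called, SLC25A30 and ESD, were both lower, where 7.48% of all genes tested were called in either direction. Nothing is read from so few genes. The log2 fold changes of the 11 ran from -0.36 to 0.34. SLC25A30, a mitochondrial carrier, was lower in EV, with a log2 fold change of -0.36 and an SE of 0.0704 (adjusted p 0.00751 in edgeR), at 27.1 ± 1.53 CPM in EV (SD, n = 3) against 35.6 ± 4.21 in the other 12 libraries. ESD, an esterase, was lower by -0.26 (SE 0.075), with an adjusted p of 0.04997 at the edge of the threshold. LRCH1 (0.19), ZC3H13 (-0.17), COG3 (-0.01), TPT1 (-0.07), KCTD4 (0.34), TPT1-AS1 (0.17), RCN1P2 (-0.14), CPB2-AS1 (0.20) and an unnamed antisense gene, ENSG00000273149 (-0.16), were not called. Among genes below the filter, CPB2 had 2 counts over all libraries, RUBCNL 14 and LRRC63 10, and HTR2A and SIAH3 had 0.

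LCP1's pattern over the libraries was compared with that of 11730 genes by Pearson's r of log2 CPM. The highest values were 0.96 for ACOT11, an acyl-CoA thioesterase gene, 0.95 for TRIML2, 0.95 for RTN4R, 0.94 for ABRACL, 0.94 for RAB32, 0.94 for TMEM87A, 0.94 for PTPN3 and 0.93 for MYORG, each over 15 libraries. ACOT11 was at 19.2 ± 2.09 CPM in EV and 13.0 ± 0.194 in NF1-g1/g2 (SD, n = 3), 13.3 CPM in NF1-g2 replicate 2, and 8.06 ± 1.83 in Parental and 6.25 ± 0.315 in NF1-g1. It thus had the same order of high, intermediate and low libraries as LCP1 over a much smaller range. The lowest values were -0.96 for PAAF1, -0.95 for PLEKHA2, -0.93 for PHKB and -0.92 for DPYSL2. Ranked by Spearman's rho, 3 of the 8 highest were shared. Without NF1-g2 replicate 2 the 8 named genes had r from 0.93 for MYORG to 0.96 for ABRACL over 14 libraries. The libraries share lines, so these are descriptions and carry no test.

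By the same measure PLS3 was the member nearest to LCP1, with r = 0.85 over the 15 libraries, at rank 163 of the 11730 genes, and r = 0.75 over the 12 libraries without EV. EZR had 0.70, PLS1 0.58, FSCN1 0.56, ACTN1 0.40 and ACTN4 -0.09. Without the EV libraries EZR had 0.35, PLS1 0.80, FSCN1 0.48, ACTN1 -0.27 and ACTN4 -0.27. NF1-g2 replicate 2, which is in both sets, moved several of these values. Leaving it out, over 14 libraries ACTN1 had 0.86, PLS3 0.85, EZR 0.82, PLS1 0.57, FSCN1 0.55 and ACTN4 0.08. Over the 11 libraries with neither it nor EV, PLS1 had 0.69, EZR 0.68, PLS3 0.66, ACTN1 0.61, ACTN4 0.17 and FSCN1 0.08. Over the 14 libraries ACTN1 and PLS3 were thus about level. The values without it were added after seeing the data.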

How the data were processed

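RNA of 15 MCF-10A libraries was measured by poly(A) RNA-seq. The authors deposited whole-number counts per gene for each library, and CPM, which equal the counts divided by library totals to within 4.91e-11. Per the submitters' processing notes, Trim Galore 0.6.0, STAR 2.7.8a and GRCh38 were used. The counting program, annotation and use of strand are not given in the sources used here, so overlapping and antisense genes may share reads. Lengths and gene positions are from GENCODE 29, and promoters are from RefSeq, which had entries for 6 of the 8 members.

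Counts were tested with edgeR 4.0.16 (R 4.3.3): filterByExpr by line, TMM scaling, and 1 quasi-likelihood group-means fit over the 15 libraries, leaving 10 residual degrees of freedom. Tests were two-sided, with p-values Benjamini-Hochberg adjusted over 17457 genes and calls made under 0.05. The SE given with an edgeR log2 fold change is its absolute value divided by the square root of the test's F statistic. The alternatives were RLE scaling, no filter, a replicate block, DESeq2 1.42.0, fits of the compared libraries only, an absolute log2 fold change of at least 1, and leaving out each library. The fit was tested on simulated data. Those held no library standing apart from its line, so they do not bear on NF1-g2 replicate 2.

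The members and lists were chosen with earlier results of these data known. The text names all members, up to 4 called genes a list by fold change, the 8 genes most and 4 least like LCP1 (prior count 2, average log2 CPM of at least 1), and tested genes within 1 Mb of it. CDH1, TP63, KRT14 and other markers were named after their values were seen.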

Additional observations from a re-analysis of the deposited data

How the results depend on the processing

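Of the 6 tested members, 2 were called between EV and the other lines. The number was 1 with no filter on low counts, 0 with the replicate block, 0 with an absolute log2 fold change of at least 1, and 0 to 4 when 1 library was left out. Calls over the 10 pairs of lines went from 2 to 1 with no filter, 7 with only the compared libraries in the fit, 1 with the replicate block, 0 with the fold minimum, and 0 to 12 with 1 library left out. For the edited lines against Parental the count of 0 became 1 in 1 such fit. The 11 listed actin genes became 6 with the replicate block, 3 with the fold minimum and 1 to 22 with 1 library left out. The cause was not tested, beyond the fold minimum, which the calls of PLS3 and EZR fail by their size. Shares over all genes are given above for only some of these fits. Nothing about the members or the lists is therefore read from these counts.

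Over 30 pairs of same-numbered libraries the mean correlation of deviations was -0.05 (range -0.75 to 0.28). Over all genes tested, no common pairing by replicate number showed. LCP1 itself was highest in replicate 3 in Parental, EV and NF1-g1, at 1.494, 122.7 and 1.187 CPM. In NF1-g2 and NF1-g1/g2, replicate 3 was its lowest library, at 0.2891 and 5.112 CPM. The cause was not tested. Under the replicate block PLS3 against Parental in the edited lines was 0.0002 on the log2 scale, opposite in sign to the value without it. Signs near 0 also turned with 1 library left out. In EV against the other lines PLS1 ran from -0.0327 to 0.2645. In the edited lines against Parental PLS1 ran from -0.2754 to 0.0264, PLS3 from -0.0745 to 0.0376 and EZR from -0.0158 to 0.0254. RLE scaling and DESeq2 turned no direction. The SE of PLS1 and FSCN1 in EV against the other lines was 0.23 and 0.184, and without NF1-g2 replicate 2 it was 0.139 and 0.0978.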
